A study of Rattus norvegicus with 16 samples.

Results

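Genes that build or dock the postsynaptic density were followed through the ac4C and RIP data of rat spinal dorsal horn: the MAGUK genes Dlg4, Dlg1, Dlg2 and Dlg3, the platform genes Shank1, Shank3 and Homer1, the adaptor gene Tanc2 and the adhesion gene Lrrc4b. These 9 genes were taken by name, with earlier results of these data known. Those with a row in the deposited RIP table were kept. That gave 8 of the 9 listed genes, out of 8671 genes in the table; Homer1 had no row and was not analysed here. Each of the 8 symbols belonged to 1 gene identifier.

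The tissue was dorsal horn of wild-type rats, either normal (control) or with cancer-induced bone pain (the pain group). For ac4C there were 3 control and 3 pain replicates, each an immunoprecipitated (IP) library paired with its own input, 12 libraries in all. For a separate RNA immunoprecipitation (RIP) there were 2 IP and 2 input libraries, all from rats with bone cancer. Strain, sex, age, the tumour model, and whether a replicate was 1 rat are not given in the sources used here. The labels carry the same ac4C protocol for the RIP libraries as for the others and name no other antibody, so what the RIP recovered cannot be stated. The labels call the replicates biological, and the pain lists were assigned by the sample descriptions although their names carry another abbreviation (CFA).

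The postsynaptic density is the protein sheet under the membrane of excitatory synapses. MAGUK proteins (PSD-95 from Dlg4, SAP97 from Dlg1, PSD-93 from Dlg2, SAP102 from Dlg3) hold glutamate receptors and adhesion molecules through their PDZ domains. Shank proteins form the deeper layer that links this complex to the actin cytoskeleton, Tanc2 is a large scaffold that binds PSD-95, and Lrrc4b (NGL-3) is a transmembrane adhesion protein that binds presynaptic LAR-type receptors outside and PSD-95 inside. In the dorsal horn these proteins stand where pain-carrying primary afferents meet second-order neurons. N4-acetylcytidine (ac4C) is an acetylated cytidine in RNA made by the enzyme NAT10.

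A few facts of the whole series bear on what follows. Peaks were listed per IP and input pair, with a fold enrichment (IP over input), a p-value and a false discovery rate (FDR) from the authors, and read depth is unknown. The lists held 1208 to 1802 peaks in controls and 50417, 2416 and 1173 in pain lists 1, 2 and 3. In pain 1, 49281 peaks shared a fold of 10.6 and an FDR of 0.0562, so a peak counts here at an FDR of at most 0.05 unless stated otherwise. At that limit the lists held 899 to 1240 peaks, and 7.85% to 11.3% of the genes of the RIP table had a peak in each. Of 12 dorsal horn neuron markers, 9 had a row in the RIP table (among them Slc17a6, Gad1, Penk and Pax2). Of 4 muscle and bone markers, 0 had a row, while 4 of 5 Schwann cell and sensory ganglion markers did, with a summed signal of 312 and 325 in inputs 1 and 2. A row required a log2 fold of IP over input above 1, so a marker without a row may still be present in the tissue. The samples were bulk tissue, so fewer cells of a type and less RNA per cell cannot be told apart.

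At this limit 7 of the 8 scaffold genes had an ac4C peak in at least 1 list (36.8% of all genes of the RIP table), 6 in at least 2 lists (12.6% of all genes) and 5 in at least 3 lists (3.79%). The genes were chosen with earlier results of these data known. The shares of all genes therefore stand beside these counts as a description, and no test was made. Lrrc4b had a peak in all 3 pain lists and in 0 control lists, and Tanc2 in all 3 control lists and in 0 pain lists. Dlg4 had a peak in 1 control list and 3 pain lists, Dlg1 and Shank1 in 1 and 2, Shank3 in 1 and 1, Dlg2 in 1 and 0, and Dlg3 in none. The scaffold genes held 23 of the 6051 peaks under the limit. Their folds ran from 3.27 to 168 with a median of 26.1, against a median of 20.5 for all peaks under the limit, and their exonic width had a median of 180 bp in both cases. Of the 23 peaks, 4 had a fold that no other peak of the same list had.

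**Figure D1:**
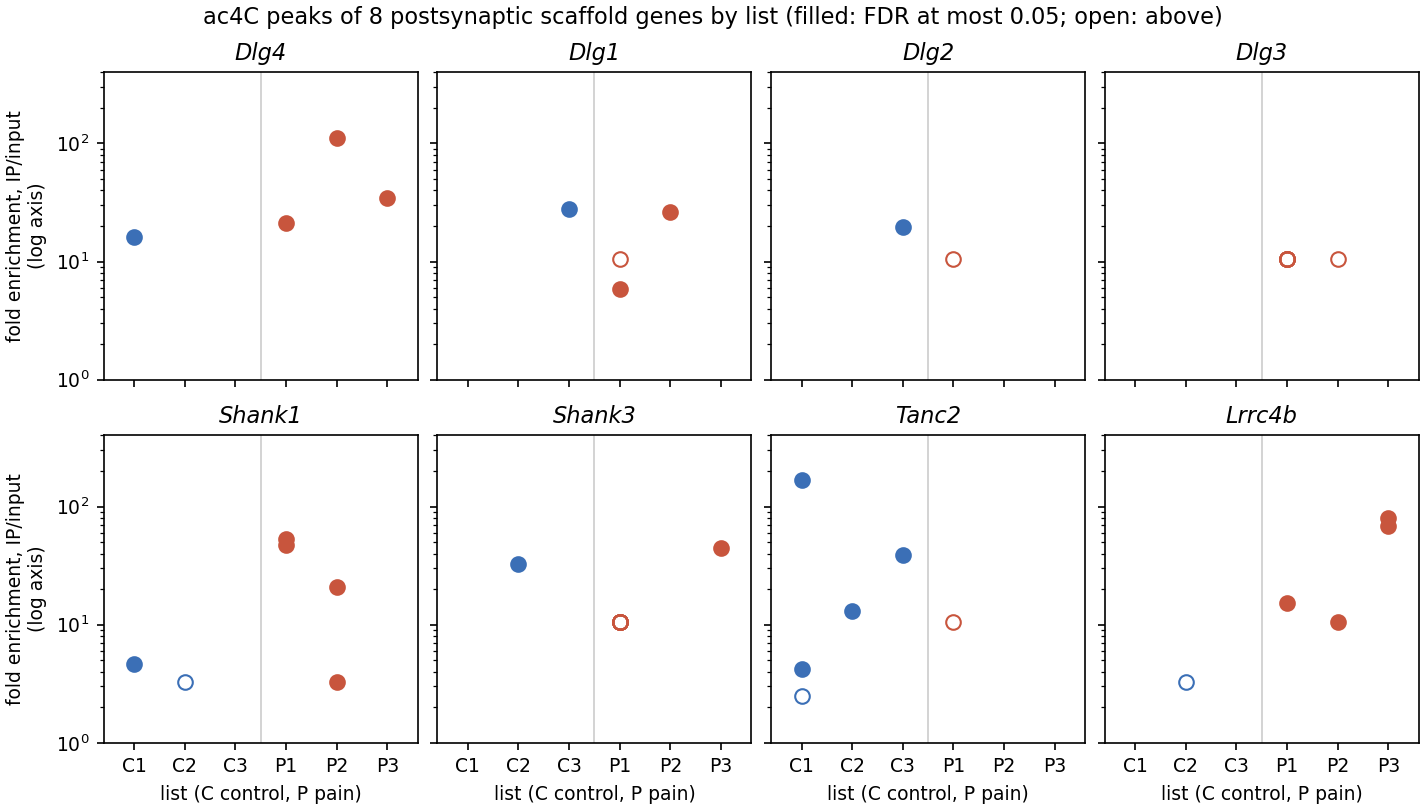
Fold enrichment (IP over input, log axis) of every deposited ac4C peak of the 8 genes in control lists 1 to 3 (C1 to C3, blue) and pain lists 1 to 3 (P1 to P3, red); filled points have an FDR of at most 0.05, open points a higher one. Filled points of Lrrc4b lie in the 3 pain lists and those of Tanc2 in the 3 control lists, while Dlg3 has open points alone.

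Lrrc4b, the adhesion protein gene, had its strongest peaks at folds of 15.3, 10.5 and 79.5 in pain lists 1, 2 and 3, with FDRs of 1.58e-15, 0.00776 and 6.31e-11. All 3 pain lists thus named the gene and no control list did under the limit. Its 4 peaks lay on the plus strand of chromosome 1 in rn6 and formed 2 clusters. The first cluster held chr1:100450363-100450543 in pain 2 and chr1:100447998-100450333 in pain 3, which were 29 bp apart. The second, further along the strand, held chr1:100467400-100467609 in pain 1 and chr1:100467010-100467220 in pain 3, which were 179 bp apart. The peak at chr1:100467010-100467220 had a fold of 68.5 and an FDR of 1e-126, and ranked 88 of 899 in its list by p-value. No pair of Lrrc4b peaks under the limit shared a base.

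The control lists were not empty at this gene. Control 2 held a peak at chr1:100467190-100467340 with a fold of 3.26 and an FDR of 0.0794, which shared 31 bp with the pain 3 peak. As deposited, Lrrc4b therefore had a peak in 3 pain lists and 1 control list. The pain 2 peak had the fold that was commonest in that list, 10.5, shared by 667 peaks. It ranked 921 of 1240 by p-value, and with each list held to its 899 strongest peaks it dropped out, which left Lrrc4b with peaks in 2 pain lists and 0 control lists.

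Tanc2, the PSD-95-binding adaptor gene, showed the opposite arrangement, with strongest folds of 168, 13.0 and 39.1 in controls 1, 2 and 3. The FDRs of these peaks were 5.01e-28, 5.01e-13 and 5.01e-19, and the control 2 fold was the commonest of its list, shared by 377 peaks. All 3 control lists held the gene and no pain list did under the limit. Its peaks were spread over 282624 bp of chromosome 10 on the plus strand. Control 1 (chr10:93811530-93878083, 3 exon blocks, fold 4.19) and control 3 (chr10:93811440-93841374, 2 exon blocks) shared 90 bp of exon. Tanc2 was the only scaffold gene whose peaks from different lists overlapped under the limit, 1 of the 6 genes with peaks in at least 2 lists; among all such genes 30.3% had an overlap of at least 1 bp. The peak of control 2 (chr10:93996472-94011879) and the strongest peak of control 1 (chr10:94093338-94094063) lay elsewhere. Pain 1 held a peak above the limit at chr10:94114437-94117121, with the recurrent fold of 10.6.

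**Figure D2:**
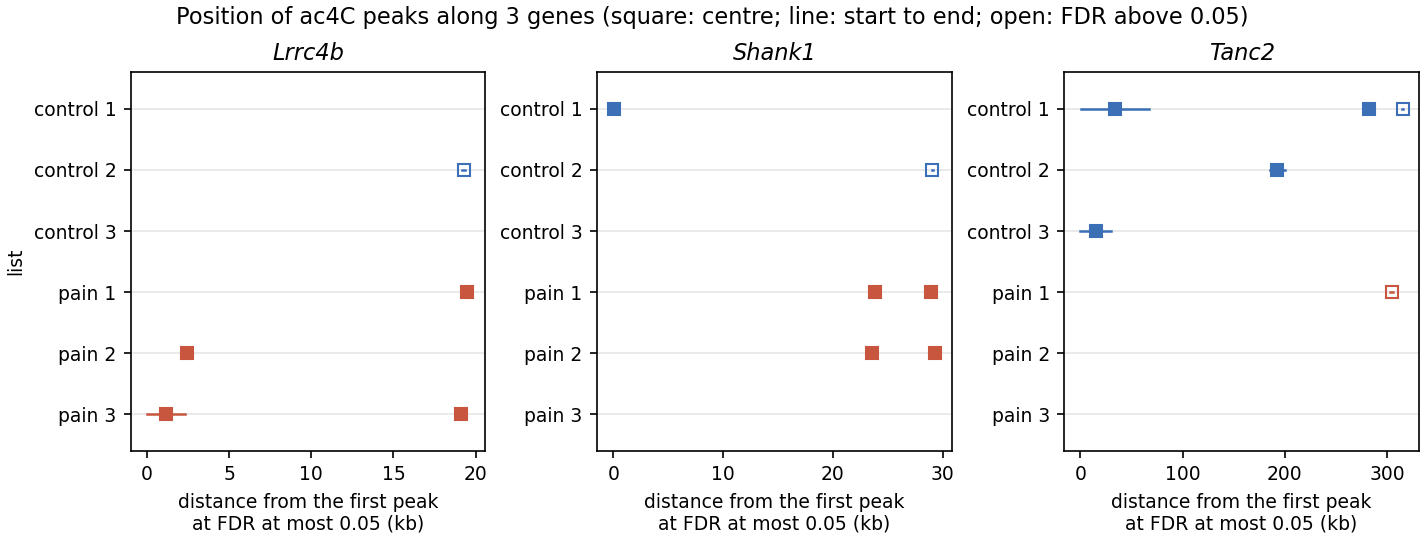
Position of each ac4C peak along Lrrc4b, Shank1 and Tanc2 (x axis, distance in kb from the first peak with an FDR of at most 0.05; y axis, the 6 lists; square, centre; line, start to end; open, FDR above 0.05). Lrrc4b peaks of the pain lists gather at 2 places, Shank1 peaks of pain lists 1 and 2 lie side by side at 2 places away from the control 1 peak, and Tanc2 peaks are scattered.

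Of the MAGUK genes, Dlg4, which encodes PSD-95, was listed most often. Its peak had a fold of 16.0 in control 1, and of 21.2, 112 and 34.2 in pain lists 1, 2 and 3. Controls 2 and 3 listed none, also above the limit. The fold of 16.0 was the commonest of control 1, shared by 80 peaks, and 154 peaks of pain 1 had the fold of 21.2. The lists differ in their typical fold, so the Dlg4 peak was also placed within each list. By fold it ranked 438 of 916 in control 1, 402 of 919 in pain 1, 39 of 1240 in pain 2 and 429 of 899 in pain 3, so that only the pain 2 peak stood near the top of its list by fold. By p-value, which also depends on the unknown depth, the ranks were 822, 313, 37 and 151 in the same order. The 4 peaks lay at 4 different places of chromosome 10 on the plus strand. They were chr10:56639234-56639768 in pain 3, chr10:56647482-56647832 in pain 1, chr10:56650730-56651812 in pain 2 and chr10:56653450-56653599 in control 1. The Dlg4 peaks thus shared a gene, within 14366 bp, and no site.

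The other MAGUK genes had fewer peaks under the limit. Dlg1, which encodes SAP97, had folds of 27.9 in control 3, 5.88 in pain 1 and 26.1 in pain 2, on the minus strand of chromosome 11. The 3 Dlg1 peaks were apart: chr11:72236433-72245264 in control 3, chr11:72179009-72204939 (6 exon blocks) in pain 1 and chr11:72164347-72164526 in pain 2. The last stood 29 bp from a pain 1 peak above the limit. Dlg2 had a single peak under the limit, in control 3 at chr1:157257281-157263061, with a fold of 19.5 and an FDR of 6.31e-08.

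Dlg3, on chromosome X, was the scaffold gene without a peak under the limit. As deposited it had 7 peaks in pain 1, all at the recurrent fold of 10.6, and 1 in pain 2 (chrX:70648144-70648293) with a fold of 10.5 and an FDR of 0.127. The latter shared 91 bp with a pain 1 peak (chrX:70648203-70648532). By the full lists alone Dlg3 would count with a peak in 2 pain lists and 0 control lists.

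Of the Shank genes, Shank1 had peaks near each other at a pair of places in pain 1 and 2. In pain 1 its peaks had folds of 52.9 (chr1:100337988-100338168) and 47.6 (chr1:100342999-100343269). In pain 2 they had folds of 3.27 (chr1:100337719-100337868) and 20.9 (chr1:100343419-100343568), 119 and 149 bp away from those of pain 1. The pain 2 peaks ranked 1193 and 942 of 1240 by p-value, and with each list held to its 899 strongest peaks both dropped out, which left Shank1 with 1 list in each group. Pain 3 listed no Shank1 peak. Control 1 had 1 peak elsewhere (chr1:100314210-100314390, fold 4.68), and control 2 had 1 above the limit (chr1:100343209-100343359, fold 3.26, FDR 0.0794) that shared 61 bp with a pain 1 peak. Both groups therefore had Shank1 peaks, with the higher folds in pain 1.

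Shank3, on the plus strand of chromosome 7, had 1 peak under the limit in each group, with folds of 32.6 in control 2 (chr7:130523071-130523251) and 44.2 in pain 3 (chr7:130523281-130523430). They were 29 bp apart, so adjoining stretches of the gene were listed in the 2 groups. Another 9 Shank3 peaks in pain 1 had the recurrent fold of 10.6.

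Of all deposited peaks of the scaffold genes, 8 pairs from different lists stood 29 to 179 bp apart without overlapping, and all 8 gaps were 1 bp short of a multiple of 30 bp. Over all genes with peaks under the limit in at least 2 lists, 43.5% of 294 gaps of up to 500 bp had this form. These shares rest on unlike sets of peaks, all deposited and under the limit, and are not compared. The adjoining peaks of Shank3, Lrrc4b and Dlg1 named above, 29 bp apart, are the closest of these. Shank1 and Lrrc4b are also near neighbours on chromosome 1, with 3 genes (C1h19orf81, Syt3 and LOC108349570) starting between them in the GRCr8 gene table of RefSeq.

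Counted by list, the scaffold genes with a peak numbered 3, 2 and 3 in controls 1, 2 and 3 and 4, 4 and 3 in pain lists 1, 2 and 3. For all genes of the RIP data the shares with a peak were 8.23%, 9.58% and 9.31% in the control lists and 8.59%, 11.3% and 7.85% in the pain lists. The means for the scaffold genes were 2.67 ± 0.577 and 3.67 ± 0.577 (SD, n = 3 lists per group), and the groups overlapped at 3. Since the genes were chosen with earlier results known, no test was made of this count. As deposited, with the recurrent peaks of pain 1, the numbers were 3, 4 and 3 against 8, 5 and 3, while 10.5%, 15.6% and 12.6% of all genes had a peak in the controls and 81.1%, 19.9% and 9.88% in the pain lists.

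In at least 2 of 3 lists of a group, peaks were found for 4 scaffold genes in pain (Dlg4, Dlg1, Shank1 and Lrrc4b; 4.0% of all genes) and for 1 in controls (Tanc2; 3.89% of all genes). Without pain 1, or without pain 2, the 4 became 2, Dlg4 and Lrrc4b, and at equal list lengths they became 3 by the loss of Shank1. As deposited, 6 scaffold genes had a peak in at least 2 pain lists, where 21.6% of all genes did, and all 8 in at least 1 list, where 90.4% of all genes did. A peak in at least 2 pain lists and 0 control lists was held by 1 scaffold gene, Lrrc4b (1.80% of all genes), and the opposite by 1, Tanc2 (1.71%). For 3 lists against 0 the share of all genes was 0.104% in the direction of Lrrc4b and 0.127% in that of Tanc2. As deposited, both genes had 3 lists against 1.

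The share of genes with a peak moves with the input signal in the RIP, whose unit and correction for length are not stated, so between genes it gives the amount of signal and not an expression level. The mean input signal had a median of 5.75 for the scaffold genes, against 3.35 for the table. Among the 5640 genes with at least the lowest mean input of the 8 (2.48), 44.1% had a peak in at least 1 list and 5.41% in at least 3. Its part in the counts above was not tested.

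No gene could pass a test of presence, because 3 lists against 3 allow no smaller p than 0.1 in Fisher's exact test. Lrrc4b and Tanc2 stood at that limit (two-sided Fisher's exact test, p = 0.1, Benjamini-Hochberg adjusted p = 1 over 8671 genes), Dlg4 at p = 0.4 and the other 5 scaffold genes at p = 1 in the same exact test. Over all genes 0 passed an adjusted p of 0.05 and 0 had an unadjusted p under 0.05, also with same-numbered lists taken as pairs.

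For the 5 scaffold genes with peaks in at least 3 lists, between 8 and 14 other genes had peaks in exactly the same lists. The pattern of Lrrc4b was shared by 8 other genes, of which Fbxo18 was nearest in fold (distance of 1.42 on the log2 scale over 3 lists; folds of 26.5, 20.9 and 124), then Enpp4 and Gdi2. The pattern of Tanc2 was shared by 10, the nearest being the spliceosomal helicase gene Snrnp200 (distance 2.37; folds of 42.4, 26.1 and 22.3 in controls 1, 2 and 3), Ankib1 and Chrna7, a nicotinic receptor subunit. The pattern of Dlg4 was shared by 8, with the microtubule-binding gene Clasp2, Pcnx1 and the kinase gene Slk nearest at distances of 2.96 to 3.96. For Dlg1 14 genes shared the pattern (nearest Cep170b, Ncoa1 and Chd5) and for Shank1 8 did (nearest Vps26b, Tcf25 and Mras). These likenesses describe the lists and carry no test.

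The RIP libraries, all from the pain group, gave the recovery of each RNA in the IP relative to its input. A row in the table required a log2 fold of IP over input above 1, so that all 8 scaffold genes passed it is no result. The signal is a deposited value per gene and library, not a whole number and with no unit in the header, and recovery is compared here within a gene. Within each of the 8 genes both IP values lay above both input values, which the same requirement favours and which is no result either.

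The Shank genes and Dlg4 had the smallest folds. Shank3 had signals of 3.42 and 3.65 in inputs 1 and 2 and of 9.55 and 10.4 in IP 1 and 2, a log2 fold of 1.49 in the authors' deposited table. Shank1 had signals of 13.2 and 14.0 in the inputs and 38.8 and 39.97 in the IP libraries, with a log2 fold of 1.53 in the authors' deposited table. Dlg4 had 20.9 and 21.9 against 71.4 and 73.3, with a log2 fold of 1.76 in the authors' deposited table. These 3 genes stood at percentiles 4.34, 5.02 and 10.6 of the table by fold.

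Lrrc4b and Dlg3 lay between. Lrrc4b had signals of 15.2 and 17.0 in the inputs and 71.5 and 66.5 in the IP libraries (log2 fold 2.10 in the authors' deposited table). Dlg3 had 2.47 and 2.49 against 12.02 and 11.6 (log2 fold 2.25 in the authors' deposited table).

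The remaining MAGUK genes and Tanc2 stood above the table's median of 2.40. Dlg1 had signals of 4.27 and 5.26 in the inputs and 30.3 and 29.3 in the IP libraries (log2 fold 2.64 in the authors' deposited table). Dlg2 had 5.71 and 7.75 against 48.0 and 44.1 (log2 fold 2.77 in the authors' deposited table). Tanc2 had 4.37 and 4.52 against 30.9 and 31.4 (log2 fold 2.81 in the authors' deposited table, percentile 82.1). The 4 Dlg genes thus did not keep together: in the authors' deposited table the fold over input was 3.38 for Dlg4 and 6.83 for Dlg2.

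**Figure D3:**
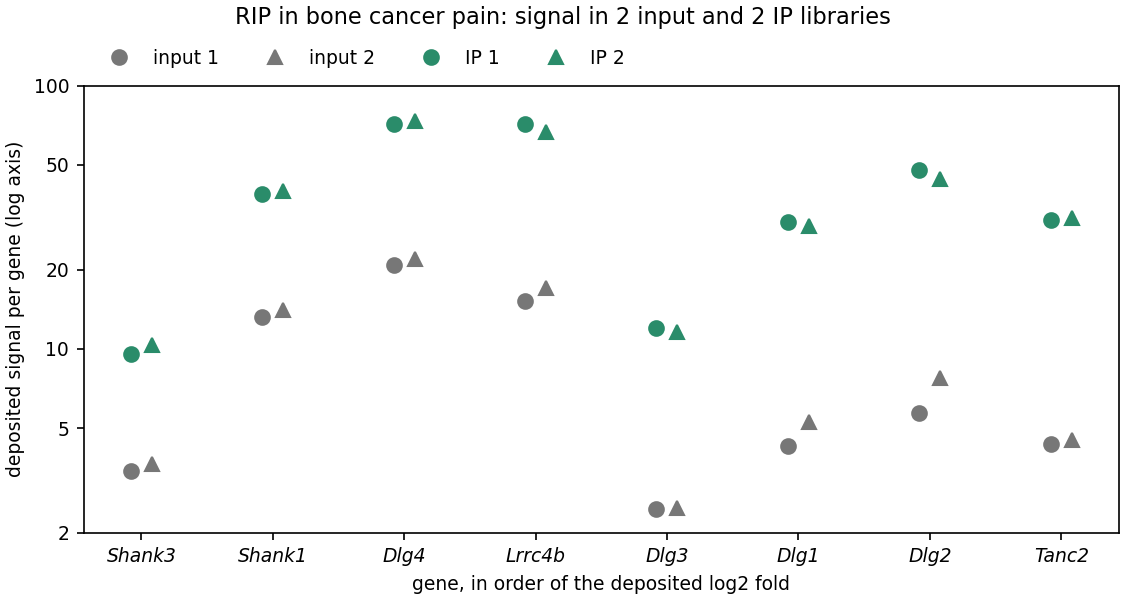
Deposited RIP signal (log axis) of the 8 genes in inputs 1 and 2 (grey) and IP libraries 1 and 2 (green), with genes from left to right by deposited log2 fold. The distance between green and grey within a gene widens from Shank3 (log2 fold 1.49) to Tanc2 (2.81); heights are not compared between genes.

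The order of the folds was read against the spread between the 2 IP and input pairs. The log2 ratios of pairs 1 and 2 were 1.48 and 1.503 for Shank3, 1.55 and 1.51 for Shank1, 1.77 and 1.74 for Dlg4 and 2.82 and 2.80 for Tanc2. Wider spreads were seen for Lrrc4b (2.23 and 1.97), Dlg1 (2.83 and 2.48) and Dlg2 (3.07 and 2.51). Dlg3 had 2.28 and 2.22. Of the 7 neighbouring pairs of genes in this order, Lrrc4b and Dlg3, Dlg1 and Dlg2, and Dlg2 and Tanc2 overlapped in their pair values and the other 4 did not. With 2 pairs, no test was made between genes.

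As a group the scaffold genes had a median log2 fold of 2.17 in the authors' deposited table against 2.40 for all 8671 genes, with 5 of the 8 below the table's median. In pair 1 alone the medians were 2.26 and 2.45, and in pair 2 alone 2.09 and 2.37. Markers of cell types differed as well: all 8 oligodendrocyte markers lay above the table's median (median log2 fold 3.23 in the authors' deposited table, summed signal of 1915 and 2195 in the inputs and 20133 and 19840 in the IP libraries). Of 6 neuron markers with a row 5 lay below it (median 2.14, summed signal of 411 and 456 in the inputs and 2043 and 2028 in the IP libraries), from Rbfox3 at 1.55 to Uchl1 at 2.61. Medians were 2.47 for 6 astrocyte, 2.99 for 4 microglia, 2.29 for 2 endothelial, 1.95 for 3 motor neuron, 2.06 for 9 dorsal horn neuron and 2.19 for 4 Schwann cell and ganglion markers, also by the authors' deposited table. The part of cell type in the folds of the scaffold genes was not tested.

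**Figure D4:**
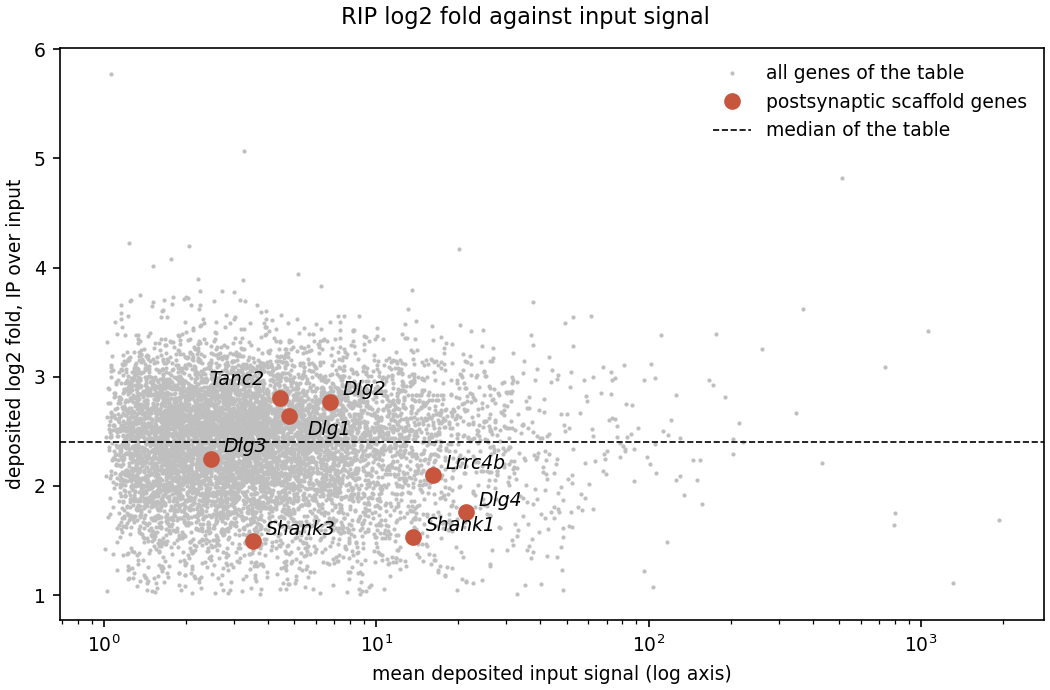
Deposited log2 fold of IP over input (y axis) against mean deposited input signal (x axis, log scale) for all 8671 genes of the RIP table (grey) and the 8 scaffold genes (red), with the table's median of 2.40 dashed. Shank3, Shank1, Dlg4, Lrrc4b and Dlg3 lie below the line and Dlg1, Dlg2 and Tanc2 above it.

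The partners of these proteins at the excitatory synapse were taken from 4 lists; of 96 genes listed, 82 had a row. Their counts stand beside 36.8% of all genes with a peak in at least 1 list, 3.89% in at least 2 control lists and 4.0% in at least 2 pain lists. Other scaffold and adaptor genes numbered 21, of which 9 had an ac4C peak in at least 1 list and 1 in at least 2 pain lists. No gene of this list had peaks in 2 control lists. Prickle2, a planar polarity gene whose product binds PSD-95, was the 1 with peaks in 2 pain lists and 0 control lists (folds of 26.1 and 44.2 in pain 2 and 3). Shank2, Homer2, Homer3 and Cask were among the 7 without a row.

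Of 22 synaptic adhesion genes 10 had a peak, 1 of them in at least 2 control lists and 1 in at least 2 pain lists. None had 2 lists against 0 in either direction. Ptprs and Ptprf, which encode LAR-type receptors of the family bound by Lrrc4b, had peaks in 2 control lists and 1 pain list and in 1 and 1. Lrrc4c, the NGL-1 gene of the Lrrc4b family, had a peak in 1 control list and 2 pain lists. Ptprd, of the same receptor family, and Lrrc4, of the Lrrc4b family, had none under the limit. These genes were singled out after their values were seen.

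Of 19 enzymes of the postsynaptic density 11 had a peak, 3 of them in at least 2 pain lists and none in 2 control lists. Sipa1l1, a Rap GTPase-activating protein, had folds of 31.4 and 3.40 in pain 2 and 3 and none in controls. The tyrosine kinase Fyn had folds of 36.6 and 8.83 in the same lists and none in controls. Of 20 glutamate receptor and auxiliary subunit genes 10 had a peak, with Grin1 (13.1 and 1.68) and Gria4 (31.4 and 3.40) again in pain 2 and 3 alone. The 5 partners with 2 pain lists against 0 control lists, of 82 with a row, were all named by pain 2 and 3. Of all genes, 1.80% had a peak in at least 2 pain lists and 0 control lists. How often pain 2 and 3 gave that pattern over all genes is not given here.

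In the authors' deposited table the median log2 fold was 2.19 for other scaffolds and adaptors (17 of 21 below the table's median), 2.13 for adhesion genes (15 of 22 below) and 2.16 for the enzymes (14 of 19 below). It was 1.93 for glutamate receptors and auxiliary subunits (14 of 20 below). The lowest and highest genes in the authors' deposited table were Baiap2 (1.71) and Prickle2 (2.99) among scaffolds and adaptors, and Lrrtm2 (1.03) and Lrrc4 (2.97) among adhesion genes. Among the receptors they were Grin2d (1.14) and Grik2 (3.04), also by the authors' deposited table. The range of the 8 scaffold genes, 1.49 to 2.81 in the authors' deposited table, lay within those of the adhesion genes and the receptors, while the lowest value among other scaffolds and adaptors was above that of Shank3.

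**Figure D5:**
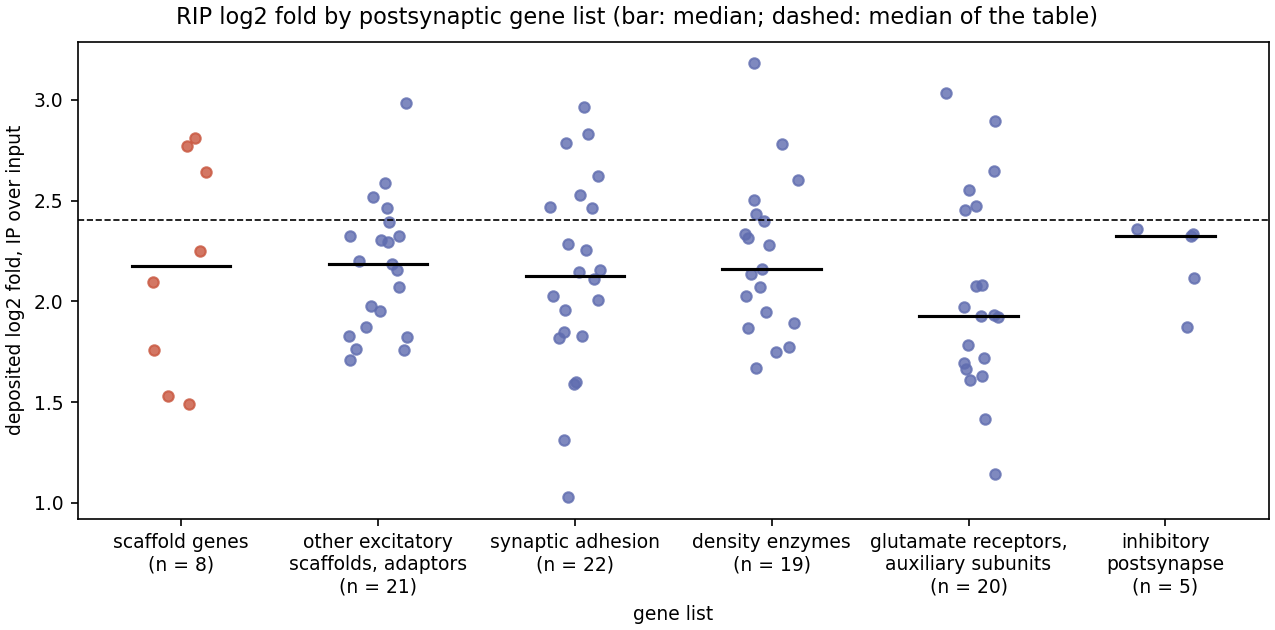
Deposited RIP log2 fold of IP over input (y axis) for the 8 scaffold genes (red) and for 5 lists of other postsynaptic genes (blue), each point a gene, with bars at the medians and the table's median of 2.40 dashed. All medians lie below the dashed line, from 1.93 for glutamate receptors to 2.33 for the inhibitory postsynapse.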

How the data were processed

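RNA was total RNA, with ac4C immunoprecipitation and library kits from Epibiotek, per the labels' protocols. The submitters' processing notes name cutadapt 2.5, HISAT2 2.1.0, HOMER 4.10.4, featureCounts 1.6.3, DESeq2 and the build rn6, without roles; the tool that called peaks was not given in the sources used here. Columns of each peak list hold, per the file headers, the authors' p-value, enrichment ratio and log10 scores of p and FDR. For the RIP the authors deposited a signal per library (unit not stated), a log2 fold, a p-value and an FDR per gene, for genes past a log2 fold of 1.

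Starts are printed 1-based, with Python 3.11.15, pandas 2.3.3 and scipy 1.17.1 used throughout. Peaks were assigned to genes by identifier, symbols came from the RIP table, and 29 symbols shared by several identifiers were left out of gene lists. A peak counted at an FDR of at most 0.05, and an overlap of peaks required 1 or more shared exonic bp on 1 strand. Presence per list was tested by Fisher's exact test over all 8671 genes with Benjamini-Hochberg adjustment; the code was checked on simulated data. The depth is unknown, so no interval is given. The RIP numbers pair each IP with its own input by label.

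The 9 genes and all lists were chosen with earlier results of these data known. All 9 were to be named; genes of like pattern were the 3 nearest in log2 of the strongest fold, for genes with peaks in at least 3 lists; from the other lists, genes with 2 lists against 0 and those with the highest and lowest RIP fold. Alternatives were all deposited peaks, an FDR of at most 0.01, equal list lengths, leaving out each replicate, the replicate block, a stricter overlap, a pseudocount of 1 and a filter on input. Some genes that this rule names are not reported here. Sequences of peaks need an rn6 genome and were not analysed here.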

Additional observations from a re-analysis of the deposited data

How the results depend on the processing

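Of the counts over scaffold genes, those with a peak in at least 1 list ranged from 6 to 7 with a list left out, and were 8 as deposited. Genes with a peak in at least 2 control lists were 2 as deposited and 1 under every other setting run. Genes with a peak in at least 2 pain lists were 2 without pain replicate 1 or replicate 2, and 2 to 4 over all lists left out. The mean number per list, pain minus control, was 1.00 in the main setting, 2.00 as deposited, 0.333 at equal list lengths of 899 peaks, and 0.667 to 1.33 with a list left out. Scaffold genes with overlapping peaks were 4 as deposited (Dlg3, Lrrc4b, Shank1 and Tanc2) against 1. The share over all genes is given only under the limit (30.3%), so the 4 have no share beside them. The Dlg3 overlap was with a peak of pain 1 at its recurrent fold. The median RIP log2 fold of the scaffold genes, 2.17, was 1.96 with a pseudocount of 1 (all genes 2.08), 2.10 above the table's median input (7 scaffold genes, against 2.40 for all genes), and 2.09 to 2.26 with a pair left out; it stayed below the table's median in each of these. Lrrc4b kept more pain than control lists, and Tanc2 more control lists, under every setting run for them. From 3 lists against 0, leaving out 1 list could not change this direction, so those settings do not test it. The difference for Lrrc4b was 2 lists instead of 3 at equal list lengths, and that for Shank1 0 instead of 1, which left 3 scaffold genes with at least 2 pain lists.

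With the replicate block (same-numbered lists as pairs) the mean difference was 1.00 ± 1.00 (SD, n = 3 pairs; differences of 1, 2 and 0) and 0 genes passed; the smallest p of the exact sign-flip test is 0.25. Same-numbered ac4C lists did not deviate together (correlations over genes of -0.0057, 0.011 and -0.0029). With the block, the RIP median was 2.18 (all genes 2.41). The cause of each shift was not tested. Unknown depth and 3 lists per group limit every statement on presence.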

Other observations

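The inhibitory postsynapse, which uses gephyrin in place of the PSD-95 family, was the list outside the excitatory side. Of 7 genes listed 5 had a row in the RIP table and 2 had an ac4C peak under the limit. Ctnnd2, a delta-catenin gene counted in this list although its product also occurs at excitatory synapses, had a peak in 1 list of each group. The log2 fold in the authors' deposited table ran from 1.87 for Lhfpl4 to 2.36 for Igsf9b, and all 5 lay below the table's median.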
